A study of Mus musculus with 121 samples.

Results

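The 10 genes described here were the transcription factor Atf4 and 9 genes linked to it in amino acid and unfolded protein stress. Ddit3, Trib3 and Sesn2 carry or report the stress signal, Asns makes asparagine, Chac1 degrades glutathione, and Psat1, Phgdh, Shmt2 and Mthfd2 act in serine synthesis and mitochondrial one-carbon metabolism. The set was defined by name, as 10 of the 31053 genes in the count tables, and all 10 passed the filter on low counts. When amino acids run short, or proteins misfold, or haem is lacking, kinases phosphorylate the translation initiation factor eIF2. General translation then falls while the ATF4 protein is made in larger amounts, and ATF4 raises genes for amino acid uptake and synthesis and for transfer RNA charging. Because much of this control acts on translation, the RNA level of Atf4 is not a measure of the ATF4 protein.

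RNA came from 1 line of mouse ear fibroblasts at passage P25, taken from a knockin mouse whose Per2 protein is fused to luciferase (genotype label PER2::LUC sv) and carried by every library. Cells in microfluidic chambers received 3 medium cycles of 24 h. In HL, 12 h of medium high in glucose and insulin were followed by 12 h of low medium, in LH the order was reversed, and in HH high medium was renewed at both changes. All cells then stayed in high medium that was not renewed, and RNA was collected at 6 times, 4 h apart, from 12 h into that period. The titles also hold a number read as an hour, 20, 12, 4, 8, 12 and 16 over collections 1 to 6 of HL and HH. In LH it is 16 and 20 in collections 3 and 4. Times here follow the collection number, with which these hours do not fully agree. The measurement was a 3′ digital gene expression count, 1 read near the 3′ end of a transcript, so that levels in CPM (counts scaled to a library total of 1000000) do not grow with gene length. The 62 libraries, most of them the sum of 2 sequencing runs, were 21 for HL, 22 for LH and 19 for HH by their titles, with 2 to 4 per treatment and collection. The study describes its replicates in general as biological. What a replicate number of these libraries marks (a day, a chamber or a plate) was not given in the sources used here, and p-values measure the spread between these libraries.

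For 40 of the 62 libraries, the title and the study's own list of library numbers gave different names or the list had no entry. All 19 HH libraries had the same name in both. Titles were used first and library numbers (57 libraries, 19 in each treatment) as the alternative, and each result below says on which names it rests. By library numbers a treatment and collection held 1 to 4 libraries, with 1 in LH collection 5. Without replicate 4, HH collection 4 also held 1. Tests over collections by library numbers thus rest in part on single libraries. Library totals ran from 2136819 to 11619095 counts, apart from 1 library of 104912 counts (LH collection 2, replicate 2 by title), in which Chac1 and Phgdh had no count. There a count of 0 allows up to 28.6 CPM (3 counts, counting error only), so that neither gene was detectable at this depth. All 10 fibroblast markers were present (summed level 9861 to 38620 CPM). Of 5 endothelial markers only Kdr was above 1 CPM on average. The 7 immune markers summed to 5.30 to 30.7 CPM except in the library of 104912 counts, where they reached 324 CPM.

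Atf4 had the highest level of the 10 members in each of the 62 libraries. Its lowest level, 278.8 CPM, lay above the highest level of Ddit3, 277.8 CPM, and its median over the 62 libraries was 570 CPM with a maximum of 3410 CPM. Ddit3, which encodes the stress factor CHOP, had a median of 141 CPM (52.6 to 277.8 CPM). Psat1, the aminotransferase of serine synthesis, had a median of 102 CPM (54.3 to 326 CPM), and Mthfd2, a mitochondrial folate enzyme, had a median of 85.1 CPM (46.3 to 285 CPM). These 3 ranges overlapped almost entirely. The next level held Shmt2, the mitochondrial serine hydroxymethyltransferase (median 50.9 CPM, 27.1 to 88.4 CPM), and Asns, asparagine synthetase (34.2 CPM, 14.6 to 73.2 CPM), which also overlapped. Sesn2, the leucine-binding sestrin that restrains mTORC1, had a median of 15.3 CPM (3.14 to 27.6 CPM). The lowest 3 members did not differ beyond their spread: Phgdh, the first enzyme of serine synthesis (8.19 CPM, up to 17.0 CPM), Chac1 (8.04 CPM, up to 16.6 CPM) and Trib3, a pseudokinase that restrains ATF4 (7.81 CPM, 1.82 to 23.9 CPM). Relative to its mean, Atf4 varied most, with an SD of 554 CPM (n = 62) and a mean of 717 CPM.

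The sequence that ATF4 and its C/EBP partners bind, written TGATGNAA, or TTNCATCA when read from the opposite strand, was searched from 250 bases before to 50 bases after the RefSeq start of each gene (build GRCm38.p6). It was in the window of 3 of the 10 members, beside 3.97% of the 32851 windows of all genes. A match is a description of the letters only. The 3 stretches are shown because they place the motif (in capitals) against the start sites of Asns, Chac1 and Trib3, and each is written 5′ to 3′ on the strand of its gene.
Asns (chr6:7693214-7693243, minus strand): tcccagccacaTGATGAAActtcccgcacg
Chac1 (chr2:119351038-119351067, plus strand): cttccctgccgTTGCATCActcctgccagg
Trib3 (chr2:152344028-152344057, minus strand): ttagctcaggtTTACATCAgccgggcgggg
The motif lay 23 bases before the start of Asns, 193 bases before that of Chac1 and 14 bases after that of Trib3. The genes themselves lie at chr15:80255184-80257541 (Atf4, plus strand), chr10:127290774-127296288 (Ddit3, plus strand) and, on the minus strand, at chr6:83305691-83325908 (Mthfd2) and chr19:15904678-15947337 (Psat1). The 3′ end of Ddit3 overlaps Mars on the opposite strand. Whether counting used strand was not given in the sources used here, so reads of the overlap cannot be assigned and the Ddit3 values are uncertain.

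**Figure D1:**
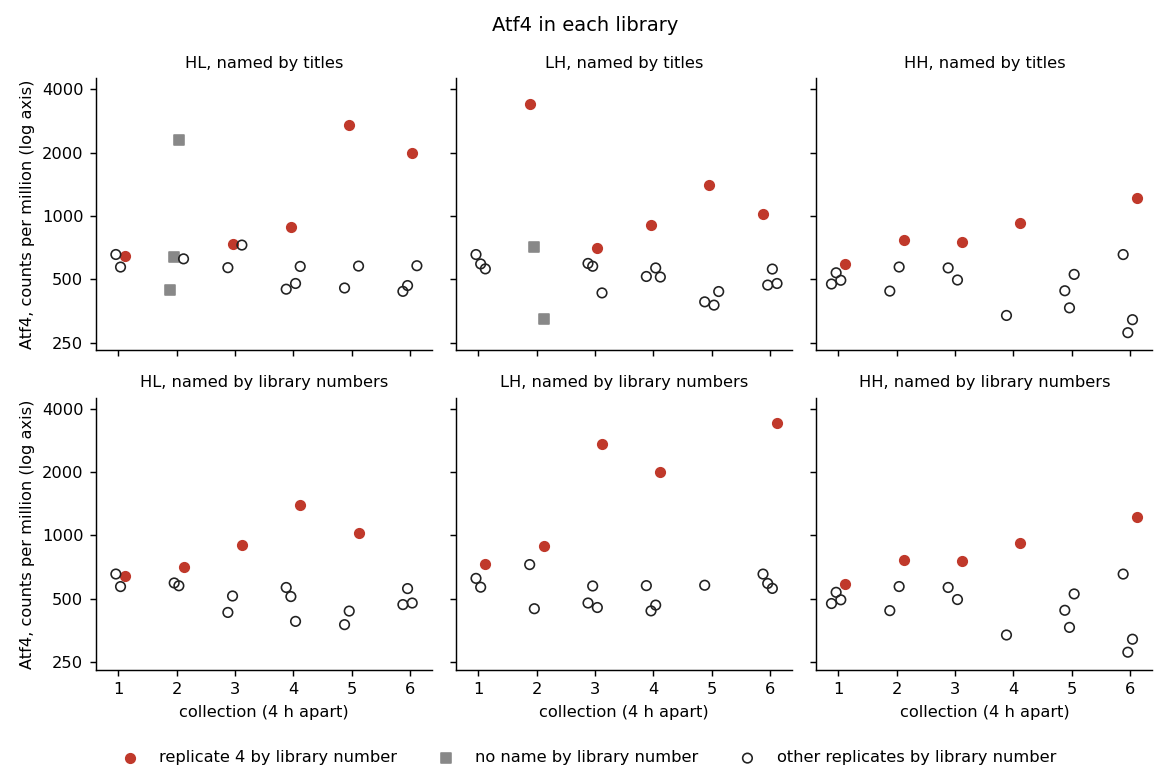
Each point is 1 library, with Atf4 in CPM on a log axis against the collection, named by titles in the upper panels and by library numbers in the lower ones. Filled circles are replicate 4 by library number, which in the lower panels is the highest point in 14 of 15 groups, open circles are the other replicates, and grey squares are the 5 libraries without a library number.

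The high Atf4 values were not spread evenly over the libraries. In HH, where titles and library numbers give the same names, replicate 4 had the highest Atf4 level of its collection in 5 of 5 collections. The 5 libraries of replicate 4 stood at 589, 764, 756, 921 and 1222 CPM (collections 1, 2, 3, 4 and 6), and collection 5 had no replicate 4. In the same collections the other replicates lay at 475 to 537, 439 to 572, 496 to 566, 337 (1 library) and 278.8 to 655 CPM. Over all HH libraries the mean was 850 ± 238.4 CPM (SD, n = 5) for replicate 4 and 465 ± 108 CPM (SD, n = 14) for the others, and the groups overlapped only between 589 and 655 CPM. This comparison was added after the levels had been seen.

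The enzymes Mthfd2, Asns and Psat1 were also high in replicate 4. Mthfd2 in replicate 4 of HH was at 98.3, 109, 111, 116 and 155 CPM against 46.3 to 99.8 CPM in the other 14 libraries. It was the highest of its collection 5 times of 5. Asns, at 36.7 to 46.1 CPM against 17.7 to 44.6 CPM, was also highest in 5 of 5 collections. Psat1, at 116 to 166 CPM against 54.3 to 157 CPM, was highest in 4 of 5. The groups also overlapped for the other 6 members. Replicate 4 was the highest in 4 of 5 collections for Shmt2, in 3 for Ddit3 and Trib3 and in 2 for Sesn2, Chac1 and Phgdh, and for Phgdh it was also the lowest in 2.

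In a quasi-likelihood test in edgeR (collection as a term, Benjamini-Hochberg adjustment over 12297 genes) 1.48% of all genes differed between replicate 4 and the other replicates of HH (1.11% higher, 0.366% lower). Among the members 4 of 10 were higher and none was lower. Atf4 differed by a log2 value of 0.91 ± 0.18 (SE, adjusted p = 0.00666), or 1.87-fold. Mthfd2 differed by 0.67 ± 0.15 (adjusted p = 0.0243), Psat1 by 0.56 ± 0.13 (adjusted p = 0.0334) and Asns by 0.57 ± 0.14 (adjusted p = 0.0481). Since the comparison was chosen for the height of Atf4 in replicate 4, its p-value for Atf4 describes these libraries and is no independent support. The same holds in part for Mthfd2, Asns and Psat1, which correlated with Atf4 within HH (Pearson r = 0.93, 0.72 and 0.51). The count of 4 members was therefore not independent of that choice. The calls depended on single libraries. Without replicate 4 of collection 6, Atf4 differed by 0.67 with an adjusted p of 0.16 in edgeR's quasi-likelihood test, and no member passed (37 of 12251 genes did). Without any of the other 4 Atf4 passed, while Psat1 and Asns missed the threshold whichever of the 5 was left out.

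By library numbers Atf4 was also high in replicate 4 of the other treatments, in which 5 collections each had a replicate 4. Atf4 in replicate 4 of HL was at 643, 708, 901, 1395 and 1023 CPM in collections 1 to 5, against 377 to 656 CPM in the other 14 libraries. In LH it was at 732, 888, 2706, 2000 and 3410 CPM in collections 1, 2, 3, 4 and 6, against 438 to 727 CPM in the others. Replicate 4 was the highest in 14 of the 15 treatment-collection groups, and the exception was HL collection 1 (643 against 656 CPM). No Atf4 level above 727 CPM was found in the 42 libraries with other numbers. Psat1 was the highest in replicate 4 in 4 of 5 collections of HL and 5 of 5 of LH, and Mthfd2 and Asns were so in 3 of 5 of HL and 4 of 5 of LH, each. Ddit3 was the highest in 1 of 5 collections of HL and 4 of 5 of LH.

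**Figure D2:**
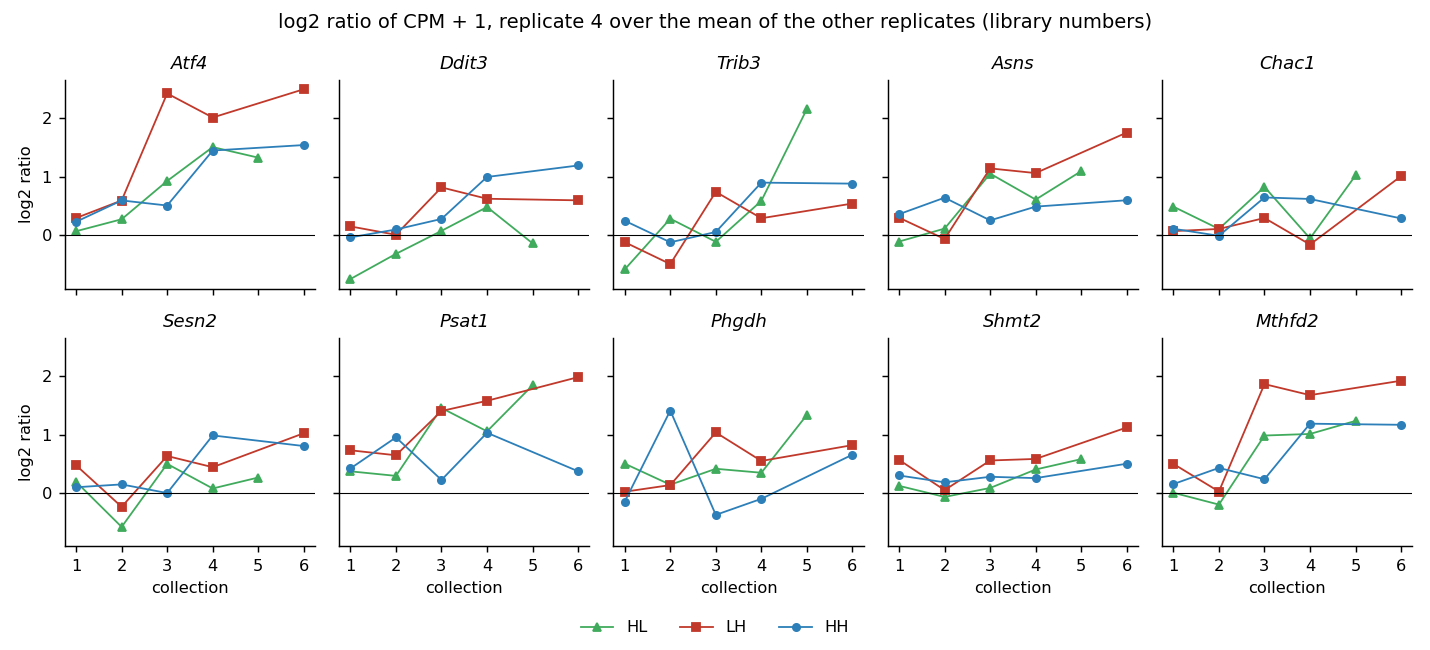
Each point is the log2 ratio of CPM + 1 in replicate 4 over the mean of the other replicates of the same treatment and collection, by library numbers, with 1 panel per member and 1 line per treatment. For Atf4 the ratio was 0.07 to 0.29 in collection 1 and 1.45 to 2.01 in collection 4, and it lay near 0 or varied in sign for Trib3, Sesn2 and Ddit3 in the early collections.

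Over the 3 treatments the fit by library numbers, again added after seeing the data, found 29.9% of 13198 genes different in replicate 4 (15.7% higher, 14.1% lower), and all 10 members were among the higher ones. Atf4 differed by 1.29 ± 0.14 (SE, log2), Psat1 by 1.09 ± 0.12 and Mthfd2 by 0.99 ± 0.12, with adjusted p-values of 2.62e-10, 2.20e-10 and 1.40e-08 in edgeR's quasi-likelihood test. These p-values treat libraries of the same number as independent. What the number marks was not given, so they do not measure a spread between replicate series. Asns followed with 0.76 and Phgdh with 0.62. The other 5 members differed by 0.39 (Ddit3) to 0.50 (Trib3). By titles the same fit called 0 of 13292 genes (0%, 474 had an unadjusted p under 0.05) and no member, with Atf4 at −0.17 ± 0.24, so that outside HH the result rests on the library numbers. Each sequencing run alone gave 1.31 for Atf4 and called 9 of the 10 members, the first without Trib3 (adjusted p = 0.0616 in edgeR's quasi-likelihood test) and the second without Chac1 (adjusted p = 0.103). The first run called 3449 of 13568 genes and the second 3242 of 13286. Over 55 libraries with at least 1000000 counts in both runs the Atf4 levels in the runs correlated with r = 0.997.

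**Figure D3:**
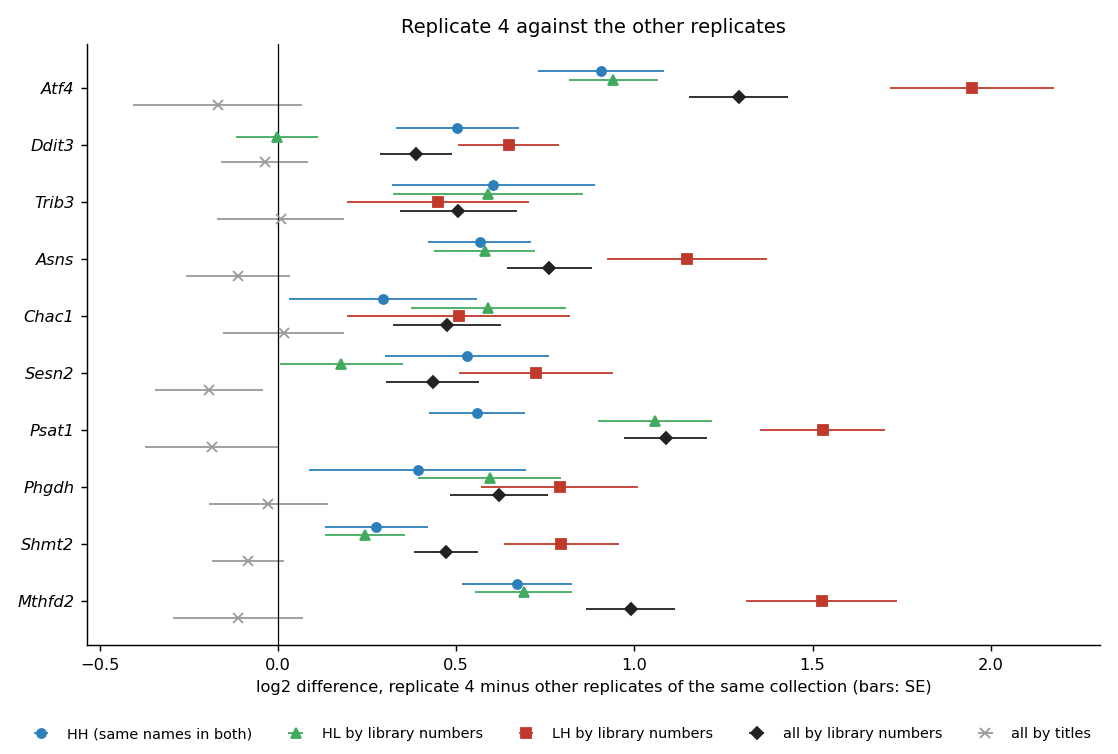
Points are the log2 difference of replicate 4 from the other replicates of the same collection in edgeR for each member, bars are standard errors, and symbols are the treatments and naming schemes. The members lie to the right of 0 by library numbers, apart from Ddit3 in HL. When all libraries are named by titles, 2 of 10 lie above 0 (median −0.10).

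The size of the difference varied between treatments and collections. By library numbers Atf4 was higher in replicate 4 by 1.95 ± 0.23 (SE, log2) in LH, 0.94 ± 0.13 in HL and 0.91 ± 0.18 in HH. A test of the difference between treatments called 3.38% of all genes and 2 members, Atf4 (adjusted p = 0.0253) and Mthfd2 (adjusted p = 0.0487). The difference for Atf4 was larger in LH than in HL by 1.03 ± 0.30 and than in HH by 1.10 ± 0.30 (SE, log2). Ddit3 was higher in replicate 4 of LH by 0.65 ± 0.14 and in HL stood at 0.998-fold, lowest of its collection in 3 of 5. The distance of replicate 4 from the others also grew over the collections, by 2.49 ± 0.38 (SE, log2) per day for Atf4 and 2.07 ± 0.36 for Mthfd2. This slope passed for 9.94% of all genes and 6 of 10 members, the others being, in falling order, Trib3 (1.91), Asns, Psat1 (1.44) and Ddit3 (1.38). In HH alone no member passed (0.155% of genes did), with Atf4 at 1.66 ± 0.45 and an adjusted p of 0.147.

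By titles the direction outside HH was the opposite. Atf4 in replicate 4 of LH was at 325 to 560 CPM (median 457 CPM), the lowest of its collection in 4 of 6 and the highest in none. In HL it was at 575 to 727 CPM, the highest in 0 of 6 collections and the lowest in 0 of 6. In edgeR's quasi-likelihood test Atf4 differed by −0.78 ± 0.34 (SE, log2) in LH and by −0.41 ± 0.31 in HL. In LH 0 of 10 members lay above 0 (median −0.46) and in HL 2 of 10 did (median −0.21), against 10 of 10 in HH (median 0.54). No gene passed in LH or HL (0% of all genes and no member). An unadjusted p under 0.05 was found for 3 members in LH and 1 in HL, beside 635 of 12439 and 656 of 12397 genes. The change per day, 0.26 ± 0.80 for Atf4, and the difference between treatments passed for no gene by titles (0%). Their unadjusted p was under 0.05 for 0 and 7 members, beside 1159 and 1290 of 13292 genes.

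Other genes of the pathway, in lists chosen by function, were read in the fit of replicate 4 by library numbers (15.7% of all genes higher and 14.1% lower), and by titles none of them passed. Of 11 other stress targets and transcription factors, 7 were higher and 1 was lower, and the largest was Nupr1, a small stress-induced chromatin protein, at 2.40 ± 0.24 (SE, log2). Of 15 genes for the eIF2 kinases, eIF2 and its exchange factor, 7 were higher and none was lower, among them Ppp1r15a, which directs the dephosphorylation of eIF2, at 1.18. Among 20 cytosolic transfer RNA synthetases 9 were higher and 1 was lower, with Aars at 0.47 and Cars at 0.43. The amino acid transporters gave 4 higher and 1 lower of 12, led by the glycine transporter Slc6a9 at 0.93, and other amino acid synthesis enzymes gave 6 higher and 2 lower of 13, led by the branched-chain aminotransferase Bcat1 at 1.85. Other serine and one-carbon enzymes did not stand out, with 2 higher (Aldh1l2 0.85, Psph 0.82) and 1 lower (Shmt1 −0.55) of 13. In HH alone, where 1.48% of all genes passed, 2 of the 81 tested genes of these lists did (2.47%). They were Nupr1 (1.39, adjusted p = 0.00478) and Slc6a9 (0.79, adjusted p = 0.000709).

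Markers and depth were set beside these values. Replicate 4 and the other replicates by library numbers had similar depth (median 5834019 and 5881700 counts). The summed level of the 10 fibroblast markers had a median of 24625 CPM in replicate 4 (13863 to 37379 CPM) and 30144 CPM in the others (15344 to 38620 CPM). The endothelial markers, in effect the receptor gene Kdr, summed to 23.3 to 185 CPM in replicate 4 (median 134 CPM) and 151 to 270 CPM in the others (median 194 CPM). The 7 immune markers had medians of 11.6 and 9.27 CPM, with 2 of them at 0 in every library of each set. The part of these values in the results was not tested, and in bulk RNA a change in the make-up of the cells and a change per cell cannot be told apart.

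The study asked of these libraries how the transcriptome depends on whether medium cycles and the clock of the cells are aligned, largely through rhythms. Mean levels were compared here by a rule adapted from the study's selection of genes, as an edgeR F-test over the 3 treatments at p under 0.01, then a pair at p under 0.05, unadjusted, with LH against HH added to the pairs. By titles, 1 of the 10 members differed between treatments under this rule, beside 1.16% of all genes for LH against HL, 1.20% for HH against HL and 0.910% for LH against HH. That member was Trib3, at 3.7 to 23.9 CPM in HL (median 9.2, n = 21), 2.6 to 17.0 CPM in LH (median 6.5, n = 22) and 1.8 to 12.8 CPM in HH (median 8.4, n = 19). The 3 ranges overlapped over most of their length. Trib3 was lower in LH than in HL by 0.64 ± 0.18 (SE, log2, n = 22 and n = 21, p = 0.000637) and lower in HH than in HL by 0.47 ± 0.18 (n = 19 and n = 21, p = 0.0129). After adjustment (Benjamini-Hochberg) of the edgeR quasi-likelihood p-values 0 of 13292 genes passed for LH against HL (756 at an unadjusted p under 0.05, and 0 after adjustment in DESeq2), and the adjusted p of Trib3 was 0.472.

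The Trib3 difference did not hold under the other names or without single replicates. By library numbers Trib3 stood 0.33 ± 0.20 higher in LH than in HL (n = 19 each, p = 0.105), the opposite sign. By titles it also missed the F-test threshold without HL replicate 3, HL replicate 4 or LH replicate 4. Atf4, which by titles did not pass, did so once HH replicate 4 was left out, 0.90 lower in HH than in HL (log2) and 0.69 higher in LH than in HH. There 2.43% and 2.06% of all genes passed. Without LH replicate 1 the rule named Trib3 and Chac1 for LH against HL and for HH against HL, and Trib3 for LH against HH. In these 3 comparisons 1.64%, 1.4% and 0.924% of all genes passed. By library numbers the rule instead named Atf4, higher in LH than in HL by 0.59 ± 0.25 (n = 19 each, p = 0.0192) and than in HH by 0.76 ± 0.24 (SE, log2, p = 0.00285, adjusted p = 0.29 in edgeR's quasi-likelihood test), where 1.34% and 1.63% of all genes passed. The means were 621 ± 248 CPM in HL, 920 ± 836 CPM in LH and 566 ± 226.9 CPM in HH (SD, n = 19 each), and the medians 566, 580 and 527 CPM. Without the 15 libraries of replicate 4, Atf4 was 0.31 ± 0.09 higher in LH than in HH (n = 14 each, p = 0.00108) and no longer differed from HL by the rule (0.15 higher in LH). Ddit3 was then 0.30 ± 0.10 higher in LH than in HH (n = 14 each, p = 0.00425) and 0.28 ± 0.10 lower in HH than in HL (p = 0.00775), with 2.22% and 1.47% of 12879 genes passing. None of these member differences passed the Benjamini-Hochberg adjustment.

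**Figure D4:**
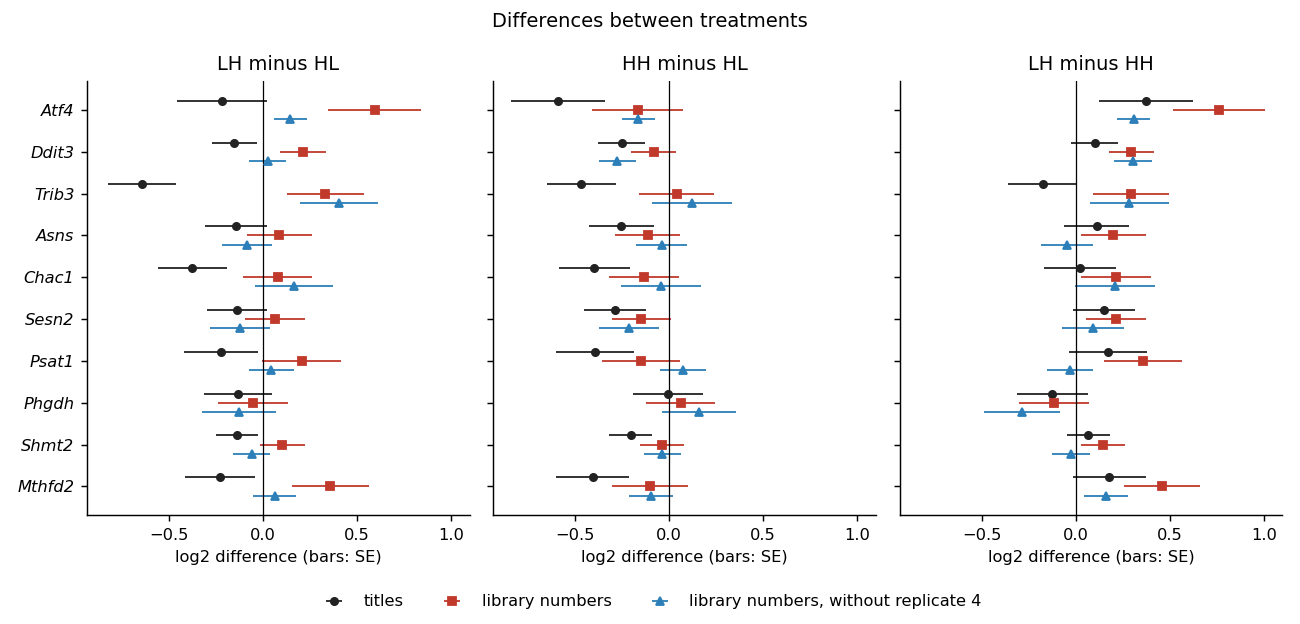
Points are log2 differences between treatments for each member with standard errors as bars, named by titles, by library numbers and by library numbers without replicate 4. Trib3 in the left panel moves from −0.64 by titles to 0.33 by library numbers.

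By titles and with the filter on low counts, no member passed the test of a change over the 6 collections. In edgeR's quasi-likelihood test of the collections, 0.301% of genes passed in HL, 2.93% in LH and 0.293% in HH, and 0 of 10 members in each. In LH, 4 members had an unadjusted p under 0.05, Shmt2 (0.00815), Asns (0.0194), Atf4 (0.0261) and Psat1 (0.0455), beside 2250 of 13292 genes. In HL and HH no member did, beside 1193 and 1145 genes. DESeq2 also called none. With no filter on low counts the test passed for Atf4, Psat1 and Mthfd2 in HL (3.08% of 20731 genes), for these with Asns and Shmt2 in LH (6.05%) and for Psat1 in HH (2.4%). The second sequencing run alone gave Atf4 and Mthfd2 in LH (7.11% of genes), and leaving out HL replicate 3 gave Shmt2 in LH (4.75%). A linear trend passed for no member in HL, LH or HH, where 0.0527%, 0% and 0.594% of genes passed. Its unadjusted p was under 0.05 for 1 member (Sesn2 in HH), beside 1546 of 13292 genes in HH. No member differed between treatments in its trend (0.0376% of genes passed). Its time course differed for no member with the filter (0.128%) and for Atf4, Asns, Psat1 and Mthfd2 without it (5.19%). A JTK test for a 24 h rhythm, which ranks the 6 collections against cosine shapes, passed for 0.466%, 0.888% and 1.24% of genes in HL, LH and HH at p under 0.01, and for no member, the smallest p of a member being 0.143. By library numbers the smallest was 0.270. Trib3 declined over HL by 2.10 ± 0.46 (SE, log2) per day when libraries were named by number and replicate 4 was left out (adjusted p = 0.00545, 1.86% of genes passing), and by 1.39 ± 0.48 with replicate 4 (adjusted p = 0.233, 0.727% of genes passing). With replicate 4 kept and a term for the replicate number added, the trend of Trib3 passed (1.84% of genes passing).

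The 45 pairs of members were compared from library to library. All 45 pairs had a positive correlation of log2(CPM + 1) over the 62 libraries, with a median Pearson r of 0.43, and 35 pairs passed a permutation test for both Pearson's r and Spearman's rho after Benjamini-Hochberg adjustment over the 45 pairs. Over all pairs of the 13292 tested genes the median r was 0.048, 58.3% were above 0 and 17.8% reached 0.264, the lowest r of the 35 pairs, and among genes with a mean of at least 10 CPM these values were 0.075, 59.9% and 26.1%. With r of either sign, as in the permutation test, 27.1% and 38.7% of these pairs reached 0.264 in size. The closest pair of members was Atf4 and Mthfd2, with r = 0.911 and rho = 0.851 (permutation p = 1e-05 for each, the smallest 100000 permutations can give). Leaving out the 2 libraries farthest from the median of Atf4 gave r = 0.871. Next came Psat1 with Mthfd2 (r = 0.79), Psat1 with Atf4 (r = 0.79) and Asns with Mthfd2 (r = 0.76), for which r over the 42 libraries outside replicate 4 by library numbers was 0.44, 0.22 and 0.59. The weakest was Ddit3 with Phgdh (r = 0.024). Within HL, LH and HH by title, Atf4 and Mthfd2 had r = 0.88, 0.94 and 0.93. By library numbers they had r = 0.698 over the 42 libraries outside replicate 4 and r = 0.971 over the 15 of replicate 4. The median over the 45 pairs was 0.345 and 0.381 in these sets, and 40 of 45 pairs were positive in each. Libraries share a sequencing depth and a total to which CPM is scaled, which was not separated from these values.

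**Figure D5:**
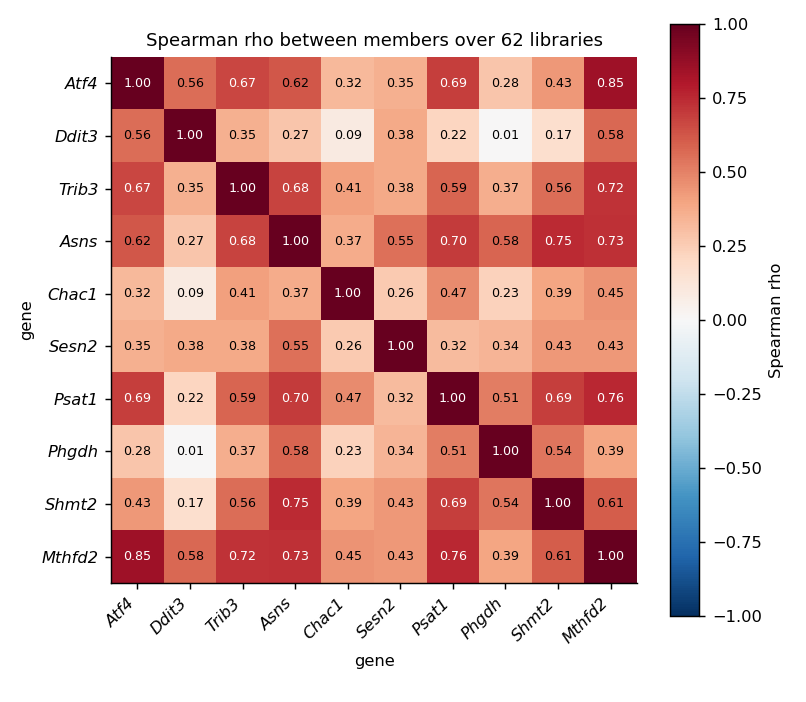
Each square is the Spearman rho of 2 members over the 62 libraries, on a colour scale from −1 to 1. All values off the diagonal are above 0, from 0.01 (Ddit3 and Phgdh) to 0.85 (Atf4 and Mthfd2).

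Among 7773 other genes with a mean of at least 10 CPM, the 3 with the highest Spearman correlation to each member over the 62 libraries were taken by rule. For Atf4 these were Hspa4l, an Hsp110 chaperone (rho = 0.86), Sema5a, a semaphorin (0.85), and Nupr1 (0.84). Hspa4l had a median of 140 CPM and a maximum of 4028 CPM. For Psat1 they were Ldha, lactate dehydrogenase A (0.80), Bcat1 (0.79) and the small heat shock protein Cryab (0.77). Mthfd2 had pyruvate kinase Pkm (0.79) first, and Trib3 had Gars, glycyl-transfer RNA synthetase (0.70). Phgdh was closest to Eif4ebp1, the translation repressor 4E-BP1 (0.73), and Asns to Ccn4 (0.75), a secreted matricellular protein. Shmt2 was closest to the nucleoporin Nup93 (0.73), Ddit3 to the co-chaperone Stip1 (0.72), Sesn2 to the endocytic protein Ehd1 (0.62) and Chac1 to Zfp954 (0.56).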

How the data were processed

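Total RNA was sequenced by a 3′ digital gene expression service from single-end reads. The authors deposited unnormalized read counts per gene, which the submitters' processing notes link to bcl2fastq, STAR 2.6.0a, HTSeq 0.9.1 and the mouse build mm10. The annotation release and strand setting of the counting were not stated. The 121 count sets were summed over runs into 62 libraries, as the study's methods pool technical replicates. Tests covered genes that reached 1 CPM in 3 or more libraries.

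Groups came from sample titles. Library numbers, from the study's list of libraries, gave the alternative names. Counts were fitted with edgeR 4.0.16 (R 4.3.3, TMM scaling, quasi-likelihood F-test) with treatment and collection as terms. Treatment differences were called by a rule adapted from the study's (F-test p under 0.01, pair p under 0.05, here in edgeR, unadjusted and for all 3 pairs), and all other calls used an adjusted p under 0.05 (Benjamini-Hochberg over all genes tested). Rhythms were tested with a JTK test (p under 0.01, period 24 h) and co-variation with 100000 permutations of log2(CPM + 1). Scripts were tested on simulated data. DESeq2 1.42.0, RLE scaling, other filters, single runs, left-out replicates and a replicate block were tried as alternatives.

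The members, the lists and the tests were chosen with earlier results of these data known. Named genes were all members, the 3 genes most alike to each, and up to 4 genes per list with the smallest p past the test. Promoter windows came from RefSeq (GRCm38.p6), and gene positions from GENCODE M21 on GRCm38, the same assembly as mm10. Libraries of 1 group differed by more than sampling noise (chi-square per degree of freedom 3.05 or more, against at most 2.11 between runs of 1 library), so that none was counted as a duplicate. The limit that a count of 0 allows covers counting error only, and standard errors and SDs include the spread between libraries.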

Additional observations from a re-analysis of the deposited data

Results flagged for a closer look

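Among the groups of 4 libraries by title, 90 gene and group combinations were examined for a library far from the rest of its group (Dixon's criterion, which chance meets in about 5 percent of groups), and 11 met it, all of them high. For Atf4 these were HL collection 2 replicate 3 (2304 CPM), HL collection 6 replicate 3 (2000.2 CPM), LH collection 4 replicate 2 (901 CPM), LH collection 5 replicate 2 (1395 CPM) and LH collection 6 replicate 1 (1023 CPM). HL collection 2 replicate 3 also stood apart for Asns (60.4 CPM), Sesn2 (26.8 CPM) and Phgdh (12.1 CPM). HL collection 6 replicate 3 stood apart for Psat1 (275.3 CPM) and Shmt2 (73.9 CPM), and LH collection 6 replicate 1 for Trib3 (17.0 CPM). Of the 11 values, 7 were in libraries that are replicate 4 by library number, and the other 4 were in HL collection 2 replicate 3, which has no library number. The share over all genes was not computed, and several values lie in the same library. The 11 are therefore no result about the members as a set.

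The distance of replicate 4 from the other replicates differed between treatments by library numbers for Atf4 (adjusted p = 0.0253 in edgeR's quasi-likelihood test) and Mthfd2 (adjusted p = 0.0487), both larger in LH. What the replicate number marks was not given in the sources used here, and its part in these values was not tested.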

How the results depend on the processing

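For the treatments and replicate 4 the choice of library names changed the calls. By library numbers the members past the rule were 0 for HH against HL (0.568% of all genes) and 1 for LH against HH (Atf4, 1.63%). With the replicate block added they were the same (0.833% and 2.34% of genes). Without replicate 4 they were 0 for LH against HL (1.05%) and 2 for LH against HH (2.22%). Trib3 turned its sign under library numbers, in LH against HL to 0.33 (0.30 with the block, 0.41 without replicate 4), in HH against HL to 0.040 (0.12 without replicate 4) and in LH against HH to 0.29 (0.35 with the block, 0.29 without replicate 4). Atf4 in LH against HL turned to 0.59 (0.42 with the block, 0.15 without replicate 4), and by titles it ran from −0.52 without LH replicate 1 to 0.021 without HL replicate 3. Leaving out single replicates gave 0 to 2 members for LH against HL and for HH against HL, 0 to 1 for LH against HH and 0 to 1 over the LH collections, where 0.665% to 1.64%, 0.689% to 2.43%, 0.538% to 2.06% and 0.349% to 5.35% of all genes passed. The trend over HL named 1 member (Trib3) by library numbers with the block or without replicate 4, and without replicate 4 the collections named 1 in HL (Trib3, with 1.23% of all genes), 1 in LH (Mthfd2, 2.56%) and 1 in HH (Psat1, 5.23%). With no filter the collections named 3 members in HL, 5 in LH and 1 in HH and the time course 4, where 3.08%, 6.05%, 2.4% and 5.19% of all genes passed against 0.301%, 2.93%, 0.293% and 0.128% with it, and the second run alone named 2 in LH (7.11% of genes). The calls of replicate 4 fell to 0 by titles over all treatments, in HL and in LH, where the direction turned, and for the change per day and the difference between treatments. In HH they were 2, 2, 2, 1 and 0 without replicate 4 of collections 1, 2, 3, 4 and 6. There 301, 178, 101, 82 and 37 of 12251 to 12262 genes passed. The cause was not tested for any of these.

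By titles the replicate numbers did not pair the libraries. Deviations of same-numbered libraries had a median correlation of 0.0015 (25.4% of pairs above 0.1, 13 of 62 libraries closest to their own number). By library numbers the median was 0.16 (64.7% of pairs above 0.1, 30 of 56 libraries closest to their own number), against −0.037 for pairs of different numbers, so that same-numbered libraries deviated together in part but not in every pair. With the replicate block by titles 1 member passed for LH against HL, 1 for HH against HL and 0 for LH against HH (1.04%, 0.978% and 0.745% of all genes). These member counts were as without the block, which changed no other call of a member by titles. The alternatives were fixed at the outset except the library numbers with the block, those without replicate 4 and all tests of replicate 4, which were chosen after seeing the data. Trib3, Chac1 and Phgdh had few counts per library, which limits their precision.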

Other observations

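Several genes outside the lists, chosen after their values were seen, had different medians between the libraries of replicate 4 and the others by library numbers. Akr1b3, aldose reductase, which makes sorbitol from glucose, had a median of 31.0 CPM in the 15 libraries of replicate 4 (10.4 to 403 CPM) and 6.40 CPM in the other 42 (1.82 to 20.3 CPM). Slc5a3, the sodium-coupled myo-inositol transporter, had medians of 446 and 202 CPM, and Sgk1, a serum- and salt-responsive kinase, of 161 and 88.0 CPM. Ereg, which encodes the growth factor epiregulin, reached 2002 CPM in replicate 4 (median 53.4 CPM) and at most 13.6 CPM in the other 42 libraries. These values come from genes picked for their difference and carry no test.

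The 5 libraries without a library number spread widely. Atf4 stood at 2304 CPM in HL collection 2 replicate 3, at 641 and 443 CPM in the 2 other such HL libraries of that collection, and at 715 and 325 CPM in LH collection 2 replicates 2 and 4. In HL collection 2 replicate 3 Akr1b3 was at 323 CPM and Ereg at 943 CPM.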
